A study of Homo sapiens with 12 samples.

Results

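The promoters that carried histone H3 trimethylated at lysine 4 (H3K4me3) were described in BON1 cells that overexpress HA-tagged Bcl-xL, with an IgG reaction of the same cells as background. Promoters reached 1 kb to either side of the outermost 5′ end annotated for each protein-coding gene. A promoter was called marked where a peak overlapped it in both H3K4me3 lists and in none of the 3 IgG lists. This rule marked 6345 of 20098 promoters on chromosomes 1 to 22 and X, or 31.6%, the background against which every gene class below is read.

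BON1 is an established line from a human pancreatic neuroendocrine tumor. The cells, BON1/TGL/HA-Bcl-xL, overexpress Bcl-xL, a protein of the outer mitochondrial membrane that restrains apoptosis, and grew in medium with puromycin. Chromatin was profiled by CUT&RUN, in which an antibody tethers a nuclease to its target in permeabilized cells and the cut fragments are sequenced, from 500000 cells per condition. One reaction used an antibody to H3K4me3 and another a rabbit anti-mouse IgG as background, each with replicates 1 to 3 in the labels. H3K4me3 replicate 1 was not analysed here, so 5 peak lists of the 12 samples in the labels were used. Vector control cells (BON1/TGL/pQ) make up the other 6 samples, and no comparison with them was made.

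H3K4me3 is written by SETD1 and MLL (KMT2) methyltransferase complexes. It sits on nucleosomes around the start sites of transcribed genes, most often at promoters rich in CpG dinucleotides, which are left unmethylated and recruit these complexes. Genes that every dividing cell uses carry the mark in most cell types, whereas genes of other lineages usually lack it. A peak shows that fragments were concentrated at a place, which is read here as the mark, and does not measure transcription.

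The sequences of 4 promoters with the highest signal and of 2 neuroendocrine genes are shown first, as examples of marked promoters described below. The first 4 are the leading promoters by mean rank of the best promoter peak within each list, after skipping those whose window held too little sequence outside exons. Each stretch lies within 300 bases centred between the summits of the 2 lists, and is printed without its exons, 5′ to 3′ on the strand of the gene, with each CpG in capitals. Letters are from the GRCh37 reference.

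ZSCAN22, GRCh37 chr19:58837975-58838188, strand plus: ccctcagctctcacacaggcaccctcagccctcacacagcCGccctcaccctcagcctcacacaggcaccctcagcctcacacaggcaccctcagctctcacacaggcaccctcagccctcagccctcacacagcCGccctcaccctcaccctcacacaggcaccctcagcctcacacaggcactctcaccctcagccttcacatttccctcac

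NPM3, GRCh37 chr10:103543204-103543326, strand minus: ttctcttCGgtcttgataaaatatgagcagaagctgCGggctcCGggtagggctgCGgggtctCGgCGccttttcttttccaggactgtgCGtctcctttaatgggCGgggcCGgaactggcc

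RAD51B, GRCh37 chr14:68286292-68286495, strand plus: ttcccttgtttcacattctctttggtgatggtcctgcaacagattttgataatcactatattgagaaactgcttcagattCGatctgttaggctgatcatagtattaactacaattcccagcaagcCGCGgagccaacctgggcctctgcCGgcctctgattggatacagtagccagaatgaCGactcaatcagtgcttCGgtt

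ERCC8, GRCh37 chr5:60240901-60241003, strand minus: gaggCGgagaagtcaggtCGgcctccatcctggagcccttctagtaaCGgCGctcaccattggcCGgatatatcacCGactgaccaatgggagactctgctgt

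SCG2, GRCh37 chr2:224466558-224466857, strand minus: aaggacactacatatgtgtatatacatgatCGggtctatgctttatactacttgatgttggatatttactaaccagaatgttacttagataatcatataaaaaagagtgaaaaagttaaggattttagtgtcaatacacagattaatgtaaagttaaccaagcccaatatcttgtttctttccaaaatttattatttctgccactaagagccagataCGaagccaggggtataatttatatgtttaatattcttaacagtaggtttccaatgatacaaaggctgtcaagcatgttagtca

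CHGB, GRCh37 chr20:5892782-5893081, strand plus: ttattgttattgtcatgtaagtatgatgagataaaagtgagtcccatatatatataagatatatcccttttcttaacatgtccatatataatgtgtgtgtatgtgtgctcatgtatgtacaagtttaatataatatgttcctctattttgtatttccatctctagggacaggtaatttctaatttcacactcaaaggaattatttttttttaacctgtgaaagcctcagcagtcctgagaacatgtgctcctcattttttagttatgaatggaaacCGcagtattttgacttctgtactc

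The ZSCAN22 stretch from position -385 to -172 relative to the 5′ end of this zinc finger gene had 2 CpG in 214 bases and 64.5% GC. It was built of a short repeat: the 10-base word CACCCTCAGC occurred 7 times in it. The other 3 leading stretches lay just upstream of their 5′ ends and were not repetitive, each 10-base word occurring 1 time. The NPM3 stretch held 9 CpG in 123 bases, and those of RAD51B and ERCC8 held 6 CpG each in 204 and 103 bases. The stretches of SCG2 and CHGB lay in introns, from 222 and 626 bases downstream of the 5′ ends. They were AT-rich, with 31.3% and 31.7% GC and with 2 and 1 CpG in 300 bases. The same 2 promoters had 44.3% and 70.3% GC in the 300 bases around their 5′ ends.

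The 2 H3K4me3 lists held 16363 and 15478 peaks in replicates 2 and 3, and the IgG lists held 262, 261 and 239 peaks in replicates 1 to 3. All H3K4me3 lists were above all IgG lists, and the means were 15921 ± 626 (SD, n = 2) and 254 ± 13.0 (SD, n = 3), 5.97 apart on the log2 scale. Peaks covered 2322 and 2139 kb under H3K4me3, against 27.7, 27.9 and 25.1 kb under IgG, 6.37 apart on the log2 scale. Of the H3K4me3 peaks, 58.3% and 57.8% lay at a promoter. The IgG shares were 1.53%, 3.07% and 0.418%, so the means differed by 56.4 percentage points.

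Promoters with a peak numbered 7675 and 7345 under H3K4me3, against 4, 8 and 1 under IgG, or 7510 ± 233 (SD, n = 2) against 4.33 ± 3.51 (SD, n = 3). In each of these 4 measures the groups did not overlap. The two-sided exact permutation test gave p = 0.2 for each, which is also 0.2 after Benjamini-Hochberg adjustment and the smallest p that 2 against 3 libraries allow. Differences are of means of log2 values, with 1 added to the promoter numbers, or of percentages.

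**Figure D1:**
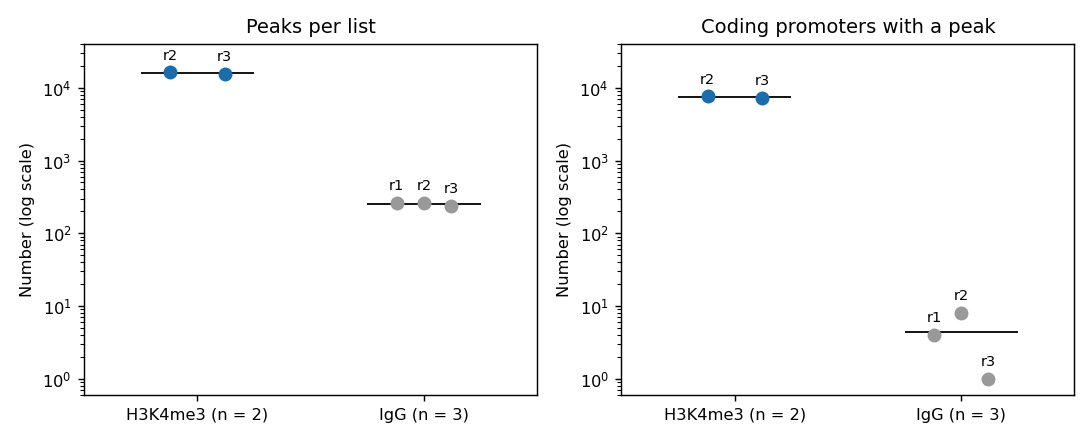
Number of peaks (left) and of protein-coding promoters with a peak (right) in each HA-Bcl-xL list, on log axes; points are libraries labelled by replicate, and lines are group means (n = 2 H3K4me3, n = 3 IgG). The H3K4me3 lists held 7675 and 7345 promoters and the IgG lists 4, 8 and 1.

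The lists give no read totals, so the depth of each library is unknown. The fold and −log10 p of a peak were solved for a whole number of fragments at its summit and a local background. Whether the unit is a fragment or a single read is not recorded. The lowest background in a list was 0.0692 and 0.0681 in the H3K4me3 lists and 0.0897, 0.0706 and 0.0763 in the IgG lists. Its relation to sequencing depth was not tested. The median peak rested on 11 and 10 fragments under H3K4me3 and on 5 in each IgG list.

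The H3K4me3 lists shared 6350 promoters. Another 1325 had a peak in replicate 2 alone, 995 in replicate 3 alone, and 11428 (56.9%) in neither. The shared set was 82.7% of the replicate 2 promoters and 86.5% of those of replicate 3. Promoters in 1 list had weaker peaks: a median of 8 fragments in either list, against 13 in both lists for marked promoters. Across the 6345 marked promoters, fragments ranged from 3 to 63 in replicate 2 and from 3 to 75 in replicate 3, and their log2 values had a Pearson r of 0.806 between lists (Spearman rho 0.787). These promoters share libraries and local sequence, so the correlation is a description. The best summits of the 2 lists lay a median of 35 bp apart, and within 150 bp at 72.0% of marked promoters.

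At the lower end of the marked set, peaks rested on few fragments. PFKL, a subunit of phosphofructokinase, had 3 and 4 fragments in replicates 2 and 3. IFNGR1, a chain of the interferon gamma receptor, had 4 and 4. ZMPSTE24, the protease that matures lamin A, had 6 and 5. Strong promoters could also fall just outside. PXMP2, a peroxisomal membrane protein, had a peak of 36 fragments in replicate 2 whose summit lay 1061 bp from the 5′ end, and the nearest summit of replicate 3 lay at 1065 bp, where the peak no longer reached the promoter. DOCK9 had 24 fragments in replicate 2, with summits of both lists at position -1111 relative to its 5′ end, and was likewise not counted.

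Within the 1 kb to either side that defines a promoter, summits were densest at the 5′ ends and lay on both sides of them. The 50 bp immediately upstream of the 5′ end held the most summits, 1197 in replicate 2 and 1190 in replicate 3. From 100 bp upstream to 50 bp downstream lay 26.1% and 26.4% of all summits at marked promoters. The next 150 bp, from 50 to 200 bp downstream, held 4.96% and 5.40%. Per 50 bp this was 163 and 171 summits, against 858 and 840 in the zone at the 5′ end. Summits became more frequent again beyond 200 bp downstream, where the zone to 1000 bp held 43.8% in each list, at 270 and 260 summits per 50 bp. The zone from 100 to 1000 bp upstream held 25.2% and 24.4%. The best summit was downstream of the 5′ end at 56.4% of marked promoters in both lists, with a median position of +37 and +36 bp.

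**Figure D2:**
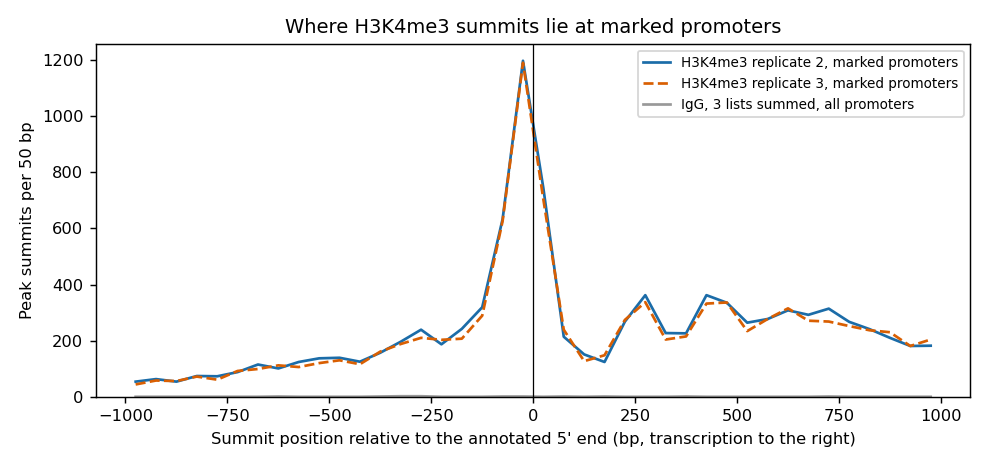
Peak summits per 50 bp by position relative to the annotated 5′ end, at marked promoters in the 2 H3K4me3 lists, with the IgG summits of 3 lists summed over all promoters (grey, near 0). Both H3K4me3 lists show 1197 and 1190 summits in the 50 bp before the 5′ end, a low between 100 and 200 bp downstream and a broad second rise beyond 200 bp.

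Many promoters were covered by more than 1 short peak. At 46.4% of marked promoters in replicate 2 and 42.9% in replicate 3, 2 or more peaks were called, up to 5 and 6. Peaks covered a median of 215 and 201 bases of a marked promoter region. The most bases under promoter peaks, a mean of 976 over the lists, lay in the overlapping promoter regions of ACIN1, a protein of the exon junction complex, and C14orf119, which start 109 bp apart. Their best summits lay at positions 947 and 938 relative to the 5′ end of ACIN1, inside that gene. C2orf42 and TIA1, an RNA-binding protein of stress granules, start 45 bp apart and shared a mean of 943 bases. C5orf34 had 934.

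By mean rank, ZSCAN22 led with 61 and 65 fragments in replicates 2 and 3. HSPB6, a small heat shock protein, and PROSER3 start 64 bp apart and shared peaks of 60 and 59 fragments. NPM3, a nuclear chaperone of the nucleoplasmin family, and RAD51B, a protein of homologous recombination, each had 59 and 62. SYF2, a splicing factor, had 48 and 45. MRPL43, of the large mitochondrial ribosomal subunit, and TWNK, the mitochondrial DNA helicase, start 148 bp apart and shared peaks of 58 and 50. ERCC8, a factor of transcription-coupled repair, and NDUFAF2, an assembly factor of respiratory complex I, start 104 bp apart and shared peaks of 46 and 63. Of these 10 leading promoters, 6 were thus in pairs that share their peaks, and the values of a pair are 1 measurement.

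Genes of constitutive functions were marked more often than the background of 31.6%. Of 46 classes taken from gene symbols, the 18 classes of constitutive functions and of large ubiquitous families were all above it. The 28 other classes were all below it. The classes were chosen with earlier results of these data known, so this split is a description and not a test. Within the 18, 726 of 1266 genes (57.3%) were marked, from 40.5% to 87.5% per class. Of the 726, 192 had the 5′ end of a coding gene outside their class within 1 kb, among them 5 of the 7 marked CCT genes and 28 of the 57 marked respiratory chain and ATP synthase genes, and a peak in reach of both cannot be assigned to either. In tissue-restricted classes this held for 6 of 31. Membership was read from symbols, so a class can hold a gene that only resembles it in name.

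**Figure D3:**
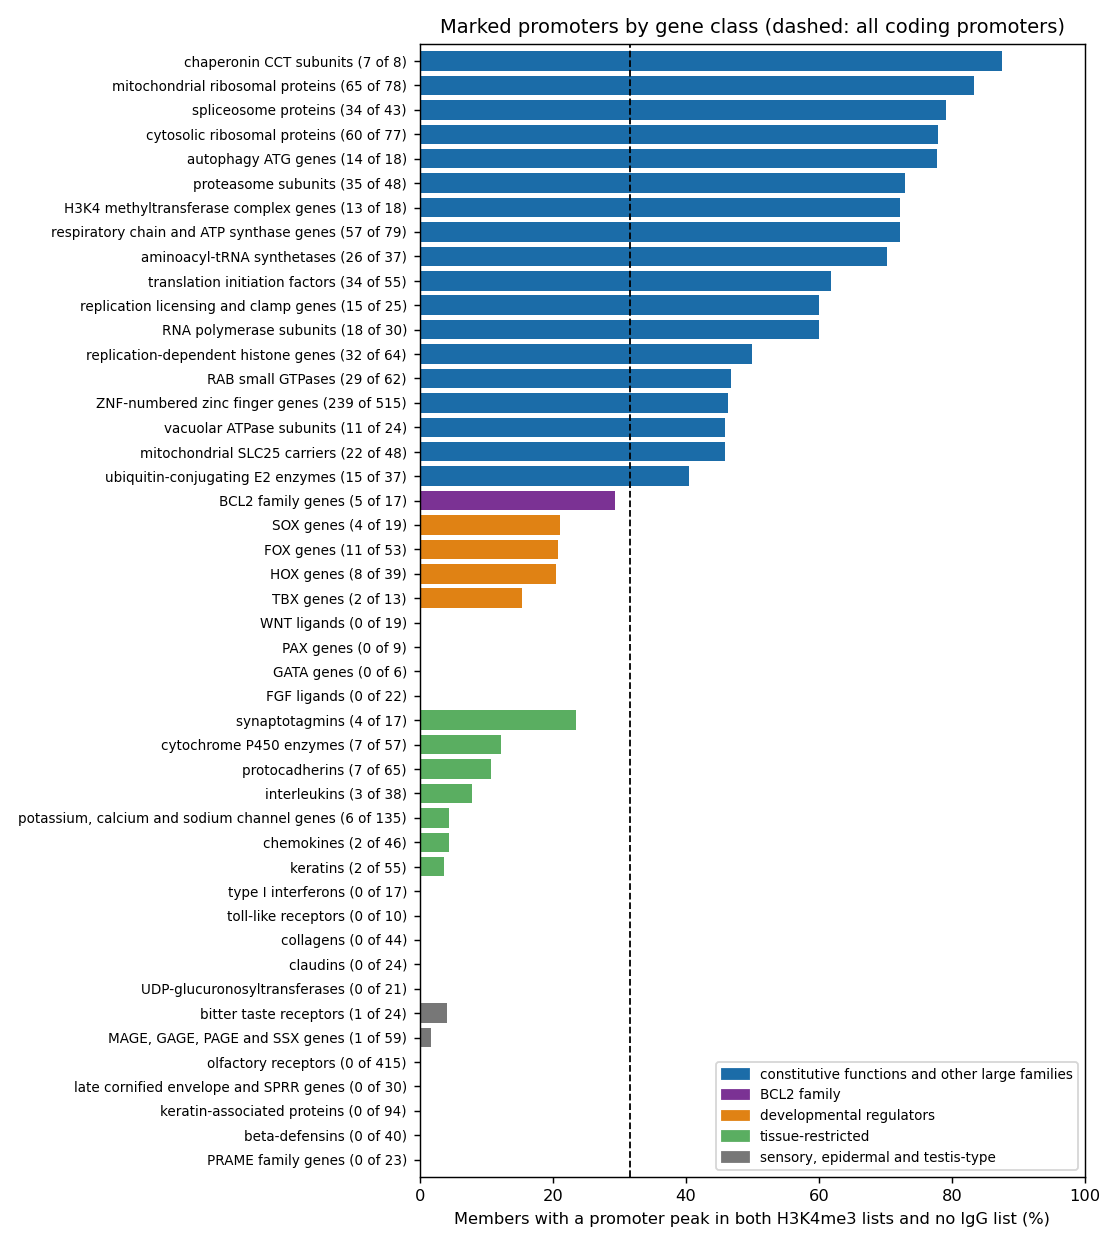
Share of members with a marked promoter in each of 46 gene classes (bars, %, with marked and total members in the labels), coloured by kind of class; the dashed line is the 31.6% of all protein-coding promoters. All 18 blue classes lie to the right of the line and all other classes to its left.

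In translation and protein folding, the marked share ran from 61.8% to 87.5% between classes. The cytosolic chaperonin CCT, which folds actin and tubulin, had 7 of 8 subunits marked (87.5%), among them CCT7 with 34 and 39 fragments and CCT5 with 24 and 28. CCT3 had no promoter peak. With promoters narrowed to 500 bp on either side, 3 of the 8 stayed marked. Mitochondrial ribosomal proteins were marked in 65 of 78 (83.3%). MRPL4 had 36 and 43 fragments and MRPS30 had 44 and 54, whereas MRPL23 and MRPL37 had no promoter peak. The nearest summits to MRPL37 lay 16059 and 16148 bp downstream of its outermost 5′ end, with 19 and 11 fragments. Of 77 cytosolic ribosomal proteins, 60 were marked (77.9%), with 38 and 28 fragments at RPL37A, 36 and 34 at RPL28 and 28 and 32 at RPL7A. RPL10A and RPL22 had no promoter peak. Aminoacyl-tRNA synthetases, which charge tRNAs, were marked in 26 of 37, with KARS1 at 51 and 44 fragments and QARS1 at 38 and 35. Initiation factors and genes of like symbol were marked in 34 of 55, led by EIF3L with 33 and 30.

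In splicing and protein breakdown it ran from 40.5% to 79.1%. Spliceosome proteins were marked in 34 of 43 (79.1%), PRPF38B with 38 and 32 fragments and PRPF31 with 25 and 25. PRPF19 and SF3B2 had no promoter peak. Proteasome genes were marked in 35 of 48 (72.9%), with 47 and 36 fragments at PSMG4, an assembly chaperone, and 40 and 40 at PSME2, a subunit of the interferon-induced activator. Autophagy genes with ATG symbols were marked in 14 of 18, ATG12 with 19 and 24 and ATG14 with 19 and 20. Ubiquitin-conjugating E2 enzymes were the lowest of the 18 classes, at 15 of 37 (40.5%), with UBE2G2 at 29 and 23. With promoters of 500 bp this class had 8 marked and fell below the background of that setting, 23.9%.

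Nuclear-encoded genes of the respiratory chain and ATP synthase were marked in 57 of 79 (72.2%), with 35 and 44 fragments at NDUFB8 and 32 and 21 at NDUFB6, both of complex I. The SLC25 carriers of the inner mitochondrial membrane were marked in 22 of 48, and in 13 with promoters of 500 bp. Vacuolar ATPase subunits, which acidify organelles, were marked in 11 of 24. RAB GTPases, switches of vesicle traffic, were marked in 29 of 62, and in 18 when only peaks with a −log10 q from 5 upwards were kept. RAB33B had 37 and 27 fragments.

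Genes of transcription and DNA replication were above the background as well. RNA polymerase subunits were marked in 18 of 30, with POLR1A, the largest subunit of RNA polymerase I, at 44 and 35 fragments under 5 and 3 peaks. Replication licensing and clamp genes were marked in 15 of 25, CDC45 with 22 and 25 fragments. GINS1 and GINS2 had no promoter peak. Replication-dependent histone genes, which lie in clusters, were marked in 32 of 64, with H3C4 at 28 and 26 and H2BC18 at 24 and 23. Genes of the methyltransferase complexes that write H3K4 methylation were themselves marked in 13 of 18. RBBP5 had 24 and 27 fragments, WDR82 had 21 and 22, and DPY30 had 17 and 13. KMT2C and KDM6A had no promoter peak. The nearest summits to KMT2C lay 1653 and 1631 bp downstream of its 5′ end, with 16 and 15 fragments. With promoters of 500 bp, 7 of the 18 stayed marked.

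The ZNF-numbered zinc finger genes, the largest family of DNA-binding proteins, were marked in 239 of 515 (46.4%). ZNF780B had 63 and 43 fragments, the highest replicate 2 value of any marked promoter, and ZNF791 had 45 and 50. The family lay above the background and below most other constitutive classes.

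Developmental regulators were marked in 25 of 180 genes (13.9%), although their promoters had a median GC content of 62.2%, close to the 62.7% of marked promoters. Among their 125 members with CpG-rich promoters, defined by an observed to expected CpG ratio over 0.6, 23 were marked (18.4%). Of all 11658 such promoters 46.9% were marked, and of the 984 in constitutive classes 64.0%. The ubiquitin-conjugating E2 enzymes were an exception among those classes, with 15 of 33 CpG-rich promoters marked (45.5%). No PAX (9), GATA (6), WNT (19) or FGF (22) gene was marked. Counting peaks at every annotated transcript end gave 2 PAX, 1 GATA, 1 WNT and 1 FGF gene. Promoters of 2.5 kb to either side gave 2 FGF genes. A single WNT gene was marked without H3K4me3 replicate 2 (WNT2B) or 3 (WNT9A), and 1 FGF gene, FGF14, without replicate 2.

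HOX genes, which pattern the body axis, were marked in 8 of 39, among them HOXC4 (18 and 22 fragments) and HOXC5 (14 and 13). The HOX number changed with the promoter width, to 2 at 500 bp and 15 at 2.5 kb, which put the class above the background of that width, 36.7%. It was 14 without H3K4me3 replicate 3. The forkhead class was marked in 11 of 53 and in 7 at 500 bp. FOXD1 had 41 and 37 fragments, the highest of any developmental gene, and FOXA3, a forkhead factor of endoderm-derived organs, had 24 and 18. The summits of FOXA3 lay at positions -643 and -649, and SYMPK, also marked, starts 795 bp away, while a nearer summit at 115 bp in replicate 2 had 9 fragments. FOXA2 had no promoter peak, and a replicate 2 summit of 17 fragments lay 1212 bp downstream of its 5′ end. FOXL2 (16 and 17) starts 80 bp from FOXL2NB, which is not a forkhead gene but matched the class by symbol. SOX genes were marked in 4 of 19, with SOX9 at 9 and 21 fragments, and in 1 of 19 with a −log10 q of at least 5. TBX3 (8 and 12) and TBX6 (12 and 11) were the marked T-box genes, 2 of 13.

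Tissue-restricted classes were marked in 31 of 529 genes (5.86%). Keratins were marked in 2 of 55, KRT8 and KRT18, the keratin pair of simple epithelia, which share peaks of 36 and 36 fragments. The summits lay 53 and 68 bp downstream of the 5′ end of KRT8 and over 1000 bp from that of KRT18. Synaptotagmins, calcium sensors of vesicle release, had the highest share among tissue-restricted classes, 4 of 17. SYT1, the fast sensor of synaptic and secretory vesicles, had 19 and 25 fragments, SYT3 had 15 and 9 and SYT11, which starts 167 bp from the marked GON4L, had 11 and 10. Channel genes for potassium, calcium and sodium were marked in 6 of 135, in 13 with promoters of 2.5 kb to either side and in 10 with the 5′ ends of all transcripts. Without H3K4me3 replicate 3 the number was also 13. SCN11A, one of them, starts 144 bp from WDR48, which was also marked. No collagen (44), claudin (24), type I interferon (17), toll-like receptor (10) or UDP-glucuronosyltransferase (21) gene was marked. With the 5′ ends of all transcripts 3 claudins were. Leaving out H3K4me3 replicate 3 gave 2 toll-like receptors, TLR1 and TLR6, 1 collagen, COL27A1, and 1 claudin, and leaving out replicate 2 gave 1 claudin.

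Cytochrome P450 genes were marked in 7 of 57, among them CYP51A1, the lanosterol demethylase of cholesterol synthesis, with 22 and 26 fragments, and CYP3A5 with 13 and 16. Requiring a −log10 q of at least 5 left 4. Protocadherins were marked in 7 of 65 in 4 with a −log10 q of at least 5, and in 11 without H3K4me3 replicate 3. PCDHB5 had 17 and 18 fragments and PCDHA10 had 18 and 20. Chemokines were marked in 2 of 46, CXCL8 with 5 and 7 fragments and CXCL3 with 12 and 7. Neither passed a −log10 q of 5 in both lists. Of 38 interleukin genes, IL15, IL23A and IL5 were marked. IL5 starts 819 bp from RAD50, and its best summits lay at positions -744 and -955 relative to the 5′ end of IL5. IL23A starts 121 bp from PAN2, which was marked.

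Classes used in sensory organs, epidermis or testis were almost without marked promoters, with 2 of 685 genes marked (0.292%). None of 415 olfactory receptors, 94 keratin-associated proteins, 40 beta-defensins, 30 cornified envelope genes or 23 PRAME family genes was marked. With 1 H3K4me3 list left out, 1 beta-defensin gene (without replicate 2) or 1 cornified envelope gene (without replicate 3) was. TAS2R14, a bitter taste receptor with 18 and 19 fragments, starts 27 bp from another marked coding gene. SSX2IP, with 8 and 18 fragments, matched the testis class by symbol alone and is not an SSX gene. Its summits lay at 1125 and 885 bp, and the call was lost with a −log10 q of at least 5, with promoters of 500 bp and when the summit had to lie inside the promoter. These classes had a median GC content of 40.7%, and 20 of their 685 promoters were CpG-rich.

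Of 24 neuroendocrine markers, 6 were marked, a smaller share than the 31.6% of all promoters. Of the 17 with CpG-rich promoters, 5 were marked, against 46.9% of all CpG-rich promoters. SCG2, a granin of secretory granules, had 36 and 33 fragments and a mean of 729 bases under peaks. NEUROD1, a transcription factor of endocrine cells, had 27 and 18, and it starts 162 bp from CERKL, also marked. CHGB, chromogranin B, had 16 and 18, and SCG3, secretogranin III, had 16 and 14. TPH1, the first enzyme of serotonin synthesis outside the brain, had 6 and 10 fragments. SLC18A1, a vesicular monoamine transporter, had 6 and 5. Neither TPH1 nor SLC18A1 passed a −log10 q of 5 in both lists.

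Replicate 2 alone had a peak at PCSK1, a prohormone convertase, with 11 fragments, and at SYP, synaptophysin, with 6. CHGA, chromogranin A, had no promoter peak in either list, and the nearest summits lay at positions -174485 and -129169 in replicates 2 and 3, more than 100 kb upstream. INSM1 had summits 1530 and 2081 bp downstream of its 5′ end and was marked only when promoters reached 2.5 kb to either side, and CPE only when every transcript end was used. DDC, ENO2, FEV, ISL1, NCAM1, NKX2-2, PAX6, PCSK2, SCG5, SLC18A2, SSTR2 and UCHL1 had no promoter peak in either list.

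Markers of other cell types were not marked: 0 of 71 annotated genes of pancreatic exocrine cells, hepatocytes, blood, muscle, endothelium and fibroblasts. With promoters of 2.5 kb to either side 1 hepatocyte marker was: APOA2, an apolipoprotein, also named after its value was seen. A single one of the 71 had a peak in 1 list: PTF1A, an exocrine transcription factor, with 10 fragments in replicate 3, named here after its value was seen. Of the 71 promoters, 7 were CpG-rich, against 17 of the 24 neuroendocrine markers.

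**Figure D4:**
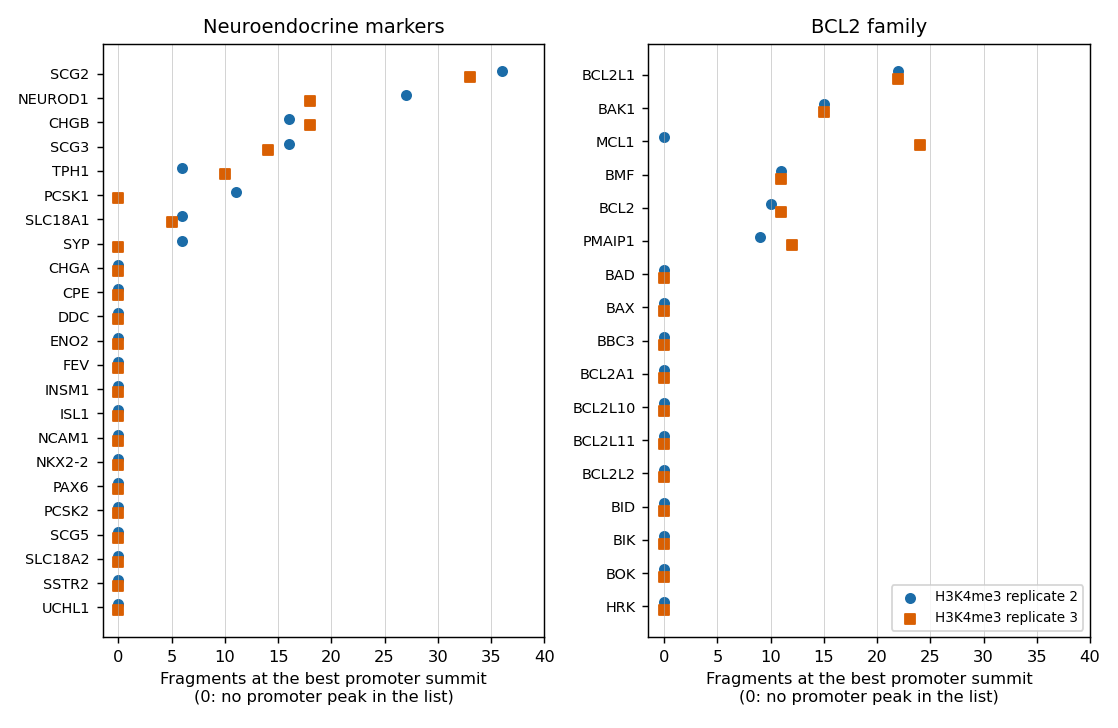
Fragments at the best promoter summit of 23 neuroendocrine markers (left) and of each BCL2 family gene (right) in H3K4me3 replicates 2 (circles) and 3 (squares), with 0 where a list has no promoter peak. SCG2 leads the left panel with 36 and 33 fragments. BCL2L1, with 22 in both lists, has the most fragments of the marked genes in the right panel, but BAK1 ranks above it within each list. MCL1 has 24 in replicate 3 alone, while 15 of the neuroendocrine and 11 of the BCL2 family genes have no peak in either list.

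The BCL2 family, to which the overexpressed protein belongs, was marked in 5 of 17 genes (29.4%). Of the genes that restrain apoptosis, BCL2 had 10 and 11 fragments and BCL2L1, the gene of Bcl-xL itself, had 22 and 22. The BCL2L1 summits lay 1043 and 1044 bp downstream of the 5′ end, so that only the edge of each peak reached the promoter, and the call was lost when the summit had to lie inside. The peak held no coding bases. Replicate 2 had a further BCL2L1 peak of 23 fragments with 30 coding bases. The replicate 3 peak that overlapped it had 24 fragments and no coding bases. Replicate 3 also had a peak of 19 fragments that lay wholly in a coding exon. In coding exons, fragments of an introduced coding sequence and of the endogenous gene cannot be told apart. No IgG list had a peak in BCL2L1. MCL1, a further restrainer of apoptosis, had 24 fragments in replicate 3 with a summit 1041 bp downstream. The replicate 2 summit lay at 1054 bp, just outside. BCL2A1, BCL2L2 and BCL2L10 had no promoter peak.

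Of the effectors that permeabilize mitochondria, BAK1 had 15 and 15 fragments with summits 78 and 81 bp downstream of its 5′ end. BAX and BOK had no promoter peak. By rank within each list BAK1 led the marked BCL2 family genes, at 91.0 and 88.6, against 75.2 and 74.3 for BCL2L1. Of the BH3-only genes, which trigger apoptosis, BMF had 11 and 11 and PMAIP1 (NOXA) had 9 and 12, which did not pass a −log10 q of 5 in both lists. BAD, BBC3 (PUMA), BCL2L11 (BIM), BID, BIK and HRK had none. The family number was 2 with promoters of 500 bp and 8 with all transcript ends, above the 38.5% of that setting. The nearest summits to BAX lay 10497 and 10507 bp away, next to FTL, which was marked.

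Marked promoters differed in sequence from unmarked ones. In the 300 bases from 250 before to 50 after the 5′ end, the median GC content was 62.7% at marked promoters, 56.3% at promoters with no peak in either list and 60.3% over all. The median ratio of observed to expected CpG was 0.834, 0.406 and 0.694. CpG-rich promoters made up 86.2% of the marked, 37.2% of those without a peak and 58.0% of all. Promoters with a peak in 1 list resembled the marked in CpG ratio (0.842) and had more GC (66.3%).

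The share of promoters marked rose with the CpG ratio, from 2.44% under 0.2 to 7.42%, 24.7%, 43.4% and 48.9% in steps of 0.2, and was 48.9% over 1. Against GC content it rose and then fell. It was 7.26% in the lowest of 10 equal bins of promoters (22 to 42% GC) and 44.2% in the sixth (60.3 to 63.3%). In the highest bin (75 to 94% GC) it was 23.2%. Read list by list, the share with a peak was highest in the eighth bin, at 53.5% in replicate 2 and 51.3% in replicate 3, with 34.8% and 32.3% in the highest bin and 50.7% and 49.0% in the sixth. How evenly fragments of such GC content were recovered was not tested.

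**Figure D5:**
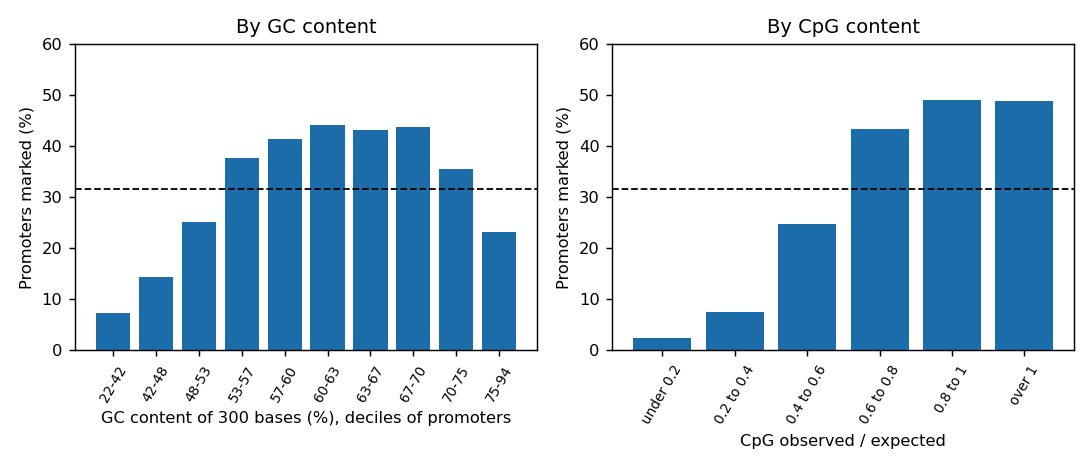
Share of protein-coding promoters marked (bars, %) by 10 equal bins of GC content (left) and by the ratio of observed to expected CpG (right) in 300 bases; the dashed line is the 31.6% of all promoters. The share peaks at 44.2% in the sixth bin of GC content and falls to 23.2% in the highest, and it climbs from 2.44% to 48.9% with the CpG ratio.

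Promoters shared by 2 genes on opposite strands were marked more often than others. Of 1703 promoters with a divergent coding partner, 1170 were marked (68.7%), against 5175 of 18395 others (28.1%). Their median GC content was 64.7%, against 59.7%. Because partners share peaks, their calls are not independent. The ERCC8 stretch printed above is the whole gap between ERCC8 and NDUFAF2.

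Short motifs, 9 in all, were searched on both strands of the 300 bases, the same window for all 20098 promoters. The ETS motif CCGGAAG was in 22.99% of marked promoters, 4.93% of those without a peak and 11.8% of all. The YY1 motif AAGATGGCG was in 4.02%, 0.490% and 1.87%, the NRF1 motif GCGCATGCG in 4.59%, 0.910% and 2.35%, and the BANP and Kaiso motif TCTCGCGAG in 1.62%, 0.350% and 0.831%. The cyclic AMP response element TGACGTCA was in 3.42%, 1.39% and 2.29%. These 5 contain CpG, as do the GC and E-boxes below, and all 5 remained more frequent in marked promoters when only CpG-rich ones were compared, the ETS motif at 25.1% against 9.21% and the YY1 motif at 4.55% against 1.08%.

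The TATA motif TATAAA was in 5.77% of marked promoters, 14.8% of those without a peak and 10.9% of all. Among CpG-rich promoters these shares were nearer, at 5.15% of the marked and 6.61% of those without a peak. The GC box GGGCGG was in 66.6%, 40.04% and 52.2%, but among CpG-rich promoters it was less frequent in the marked (71.1%) than in those without a peak (77.1%). The CCAAT box was in 40.5%, 33.4% and 35.8%, and among CpG-rich promoters in 40.02% of the marked and 28.7% of those without a peak. The E-box CACGTG was in 9.80%, 7.13% and 8.33%, but among CpG-rich promoters in 10.2% and 9.94%. In the stretches printed above, CCAAT was in those of RAD51B, ERCC8 and SCG2, GGGCGG in those of ZSCAN22 and NPM3, and TATAAA in that of SCG2. A match describes the letters and is not evidence of binding.

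Other gene types were marked less often than coding genes. Long noncoding RNA genes were marked in 1932 of 18792 (10.3%). Where the outermost 5′ end of a coding gene lay within 1 kb, 45.2% were marked, and 3.81% (551 of 14462) where none lay within 5 kb. Processed pseudogenes were marked in 0.352%, unprocessed pseudogenes in 1.34%, miRNA genes in 2.84%, snoRNA genes in 2.54%, snRNA genes in 1.53% and other small RNAs in 0.938%. Short RNAs inside a host gene can take the peak of their host.

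Touching or overlapping peaks of the 5 lists formed 22728 regions, of which 9189 had peaks in both H3K4me3 lists and in no IgG list. Of these, 6262 (68.1%) lay at a coding promoter as defined above. The other 2927 (31.9%) were mostly at further starts: 1680 within 1 kb of another coding transcript start and 575 of a noncoding one. Of the remainder, 91 overlapped exons, 390 lay in introns and 191 between genes, 672 regions in all. These 672 had a median length of 171 bp and medians of 11 and 12 fragments.

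The strongest of the 672 were short. At 5 of them, no longer than 80 bp, each list had over 60 fragments or a value too high for a whole number to be solved. The 3 with a solved number were chrX:119943774-119943848 with 163 and 164 fragments, chr2:187828432-187828507 with 102 and 103, and chr22:25181257-25181331 with 100 and 94, all between genes. The other two were chr7:10925175-10925248 between genes and chr17:79584612-79584684 in an intron of NPLOC4. The values were higher than at any marked promoter, where the most was 75 fragments. No IgG peak lay within 1 Mb of any of the 5. Just over the length limit, at 81 bp, chr11:10298700-10298780 in an intron of SBF2 had 71 and 68 fragments. Its nearest IgG peak lay 232264 bp away.

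The IgG lists held few promoters. In all, 13 protein-coding promoters (0.0647%) had an IgG peak, each in 1 IgG list. Both H3K4me3 lists had a peak at 5 of them: POLR3E, TPX2, ARID3B, MUC1 and MEIG1. These are the promoters that the IgG condition removed from the marked set. MUC1 had the highest IgG value of the 13, 11 fragments in IgG replicate 2. The other IgG peaks had 4 to 6 fragments. C18orf25 and TP53TG3B had a peak in 1 H3K4me3 list, and NDRG1, SMYD1, CCRL2, PTX3, OR1P1 and AL021920.2 in none.

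Recurrent IgG peaks lay away from promoters. The 3 IgG lists formed 618 regions, of which 533 were in 1 list and 59 in all 3. Of the 59, 44 overlapped peaks of both H3K4me3 lists. The 59 included 7 regions of chromosome 1, 6 of them among the 44, from 564691 to 569579, over MTND1P23, MTND2P28, MTCO1P12 and MTATP6P1, pseudogene copies of mitochondrial genes, with folds of 3.597 to 5.69. The highest folds were at chr6:27794586-27794728, at 86.7, 87.6 and 91.2 in IgG replicates 1 to 3. Of the H3K4me3 peaks, 0.495% and 0.588% overlapped an IgG peak of any list.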

How the data were processed

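CUT&RUN peak lists of HA-Bcl-xL BON1 cells, 1 per library, were used as deposited. The submitters' processing notes name bcl2fastq 2.20, Trimmomatic 0.36, Bowtie2 2.2.9, MACS2 2.1.1, deepTools 3.5.1 and hg19. The control used for calling, the treatment of duplicates and any blacklist are not given in the sources used here. Each peak came with 4 values that the authors deposited: a score, a fold over background, and the −log10 of p and of q. The deposited score is 10 times the −log10 q without its decimals, and no q-value exceeded 0.01. Scores, folds and −log10 values ranked or described peaks within a list. Folds printed for several lists are each list's own, and mean ranks average the percentiles within each list. Coordinates are 1-based hg19 (GRCh37), and peaks on other contigs and Y were left out of the counts.

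Genes were those of GENCODE release 44 lifted to GRCh37, and an overlap of 1 bp counted. Fragments and background were solved from fold = (n + 1) / (background + 1) and the Poisson tail, to a tolerance of 0.001 in −log10 p, which gave a whole number for 95.8 to 99.9% of peaks per list. The solution was tested on simulated peaks made with the same formulas, which cannot show that the deposited values follow them. The rank of a peak is its percentile by −log10 p in its own list. Python 3.11.15, numpy 2.4.6, pandas 2.3.3, scipy 1.17.1, pysam 0.24.0 and matplotlib 3.10.9 served.

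The members, gene classes and motifs were chosen with earlier results of these data known. Genes were named by rule: the 10 promoters with the highest mean rank, the 5 with the most bases under peaks, up to 3 marked members and 2 without a peak per class, all neuroendocrine and BCL2 genes, and promoters with an IgG peak. Promoters just inside or outside the rule, and neighbours of named genes, were added after their values were seen. Of these, the ones that carry a comparison are printed, and some genes are not reported here. Sequences lost their exons, and stretches under 100 bases were skipped. As alternatives, peaks under a −log10 q of 5 were dropped, and others used promoters of 500 bp or 2.5 kb or of all transcripts, summits inside the promoter, equal list lengths, no IgG exclusion, merging within 500 bp, a replicate block, and each library left out. Nothing in the labels says that replicates are separate cultures, so p-values concern only these libraries and do not measure a spread between cultures. PCR can copy a molecule many times and the treatment of duplicates is not given, so fragment numbers can carry more than counting error.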

Additional observations from a re-analysis of the deposited data

Results flagged for a closer look

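Peaks were also listed on contigs outside the chromosomes analysed, and there the H3K4me3 lists exceeded the IgG lists. On the alternative chromosome 6 haplotype contigs, which carry other versions of the major histocompatibility region, H3K4me3 replicate 2 had 127 peaks and replicate 3 had 89, against 0, 1 and 0 in IgG replicates 1 to 3. On unplaced and unlocalized contigs, H3K4me3 replicates 2 and 3 had 109 and 99 peaks, against 53, 35 and 41 in the IgG lists. The first gap is the wider of the 2 in relative terms. No gene was assigned to these peaks, and they enter no count above.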

How the results depend on the processing

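The 4 differences between H3K4me3 and IgG kept their direction under each fit with all 5 libraries. Their p of 0.2 is the smallest that 5 libraries allow and says nothing of stability. With 1 library left out they ranged from 5.93 to 6.01 (peak number), 6.31 to 6.43 (covered length) and 10.13 to 11.21 (promoters with a peak per library, all log2), and from 55.8 to 57.1 points (promoter share of peaks). With a replicate block that pairs H3K4me3 and IgG of numbers 2 and 3, they were 5.99, 6.40, 10.79 and 56.3, with an exact p of 0.5, the smallest that 2 pairs allow, and 6346 promoters were marked. The labels do not say that a number marks a shared batch, and replicate 2 had more peaks than replicate 3 under both antibodies. Other settings moved the 4 differences further. With a −log10 q of at least 5, those of peak number and covered length were 6.76 and 7.01. That of the promoter share was 39.3 points with promoters of 500 bp and 71.6 with all transcript ends. For promoters with a peak it was 9.39 at 2.5 kb and 12.27 with a −log10 q of at least 5. Marked promoters numbered 4796 with promoters of 500 bp, 5062 with a −log10 q of at least 5, of which 5059 were shared with the 6345 reported, 7378 at 2.5 kb and 7744 with all transcript ends. Without H3K4me3 replicate 2 or 3 they numbered 7339 and 7669. Classes above the background numbered 17 to 19, and those that crossed it are named in the report. The agreement of the 2 H3K4me3 lists under 4 added alternatives, chosen after seeing the data, gave 4800 to 7394 shared promoters. A promoter without a peak at this depth may still carry the mark, since called peaks rested on as few as 3 fragments.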

Other observations

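The share of coding promoters marked differed between chromosomes. It was highest on chromosome 14, with 297 of 616 (48.2%), and lowest on chromosome X, with 75 of 869 (8.63%), followed by chromosome 21 with 41 of 229 (17.9%). Both lists had this order: 52.1% and 52.8% of chromosome 14 promoters had a peak in replicates 2 and 3, against 15.8% and 14.5% on X and 27.1% and 22.7% on 21. Median promoter GC content was 59.7%, 58.0% and 58.3% on these chromosomes, and olfactory receptors made up 27, 1 and 0 of their genes. Copy number was not measured.

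Among long noncoding RNA genes over 5 kb from the outermost 5′ end of any coding gene, those with a name and strong peaks included EMSLR on chromosome 7, with 21 and 27 fragments in replicates 2 and 3, LGALS8-AS1 on chromosome 1, with 33 and 24, and HOXC-AS1 in the HOXC cluster, with 24 and 28. PROX1-AS1, which starts near the endocrine regulator PROX1, had 29 and 30. These 4 were picked after their values were seen.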
